A study of Mus musculus with 12 samples.

Results

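The genes described here are the 6 mitochondrially encoded subunits of respiratory complexes III, IV and V: mt-Cytb of complex III, mt-Co1, mt-Co2 and mt-Co3 of complex IV, and mt-Atp6 and mt-Atp8 of complex V. They were taken by gene name from a table of 35275 genes, all lie on chromosome MT, and together with 7 subunits of complex I they make up the 13 mRNA genes of that genome. They form a set chosen by name with their low level in stressed males, a log2 fold change of counts, already known, so the values of stressed and control males are given as a description, without a test. Total RNA came from the ileum, the lower end of the small intestine, of C57BL/6 mouse pups on postnatal day 14. In 2 of the 4 groups, stressed males and stressed females, the mother had been restrained each day for 2 h in a ventilated tube, starting on gestational day 7 and ending on day 19. Control males and control females came from mothers left undisturbed in their home cages. Each group held 3 libraries, 1 pup of each sex from each of 3 dams, so that the stressed animal was the dam and the 2 pups of a dam were littermates. The comparison addressed by the design is between ileal expression in offspring of stressed and undisturbed dams, in both sexes.

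The respiratory chain of the inner mitochondrial membrane passes electrons to oxygen and pumps protons, and ATP synthase uses the proton gradient to make ATP. Complex III hands electrons from ubiquinol to cytochrome c, complex IV hands them on to oxygen, and complex V is the ATP synthase itself. Each is built from subunits of both genomes. The mitochondrial genome is transcribed as long precursors that are cut at the tRNAs lying between most of the genes, while most subunits and all assembly factors are encoded in the nucleus and imported. In the gut epithelium these complexes supply the ATP used for absorption and for renewal of the epithelium.

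The libraries held 16423523 to 22975526 counted reads. Stressed males 1 and 3 and control male 1 gave 1.39%, 4.13% and 1.00% of their reads to the noncoding RNA gene Yam1, against 0.171% to 0.50% in the other 9. Markers of the upper small intestine were high in the pups of control dam 3, with summed CPM (a gene's count over the library total scaled by TMM, per megaread) of 7420 in the male and 2814 in the female against 393 to 738 in the other 10. All 8 markers of epithelium, all 8 of smooth muscle and all 8 of the suckling ileum had counts in each group, while 5 of 8 markers of exocrine pancreas were at 0 in every group. In whole tissue, fewer cells of a type and less RNA per cell cannot be told apart.

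Sequence was examined first, because nuclear copies of mitochondrial genes bear on what a count of these genes holds. On mouse chromosome 1 the annotation lists 4 copies in a row on the minus strand, in the order of the mitochondrial genes. The table names them RP23-8J15.1 to RP23-8J15.4, and GENCODE M21 (build GRCm38, the build of the deposited table) names them Gm29216, Gm28661, Gm10925 and Gm28437. Their places are chr1:24615706-24616197, chr1:24614885-24615565, chr1:24613974-24614651 and chr1:24613189-24613971. Between the copies of mt-Co1 and mt-Co2 lie 140 bases, between those of mt-Co2 and mt-Atp6 233 bases and between those of mt-Atp6 and mt-Co3 2 bases, and the same numbers of bases lie between the matching stretches of the genes on chromosome MT. The copies of mt-Co2, mt-Atp6 and mt-Co3 were identical to the mitochondrial gene at 681 of 681, 678 of 678 and 783 of 783 bases, which leaves out 3, 3 and 1 bases at the 3′ end.

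The ends of these 3 genes are shown because the annotation of each copy stops just short of them. The bases in lower case lie past the annotated end of the copy. Whether chromosome and gene differ there was not examined. Each is given 5′ to 3′ on the plus strand of chromosome MT, with the bases inside the copy in capitals. The last 40 bases of mt-Co2 lie at chrMT:7657-7696, those of mt-Atp6 at chrMT:8568-8607 and those of mt-Co3 at chrMT:9351-9390.
mt-Co2: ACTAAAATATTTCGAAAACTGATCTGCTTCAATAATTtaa
mt-Atp6: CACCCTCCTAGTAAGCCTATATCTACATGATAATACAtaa
mt-Co3: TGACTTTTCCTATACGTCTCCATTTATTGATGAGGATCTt

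For mt-Co1 the chromosome 1 copy covers the 3′ part alone. Bases 1067 to 1545 of its 1545 were identical to Gm29216 at 479 of 479 bases. The stretches where this unbroken identity begins are shown with its bases in capitals, and some of the bases before it also match. The first is chrMT:6381-6440 on the plus strand, and the second is chr1:24616138-24616197, read on the minus strand.
mt-Co1: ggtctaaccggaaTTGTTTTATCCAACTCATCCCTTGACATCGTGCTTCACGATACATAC
Gm29216: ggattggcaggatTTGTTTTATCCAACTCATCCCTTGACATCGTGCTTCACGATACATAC

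The 2 genes of complex V overlap on the same strand. mt-Atp8 (204 bases) and mt-Atp6 (681 bases) share the 43 bases of chrMT:7927-7969, which are the end of mt-Atp8 and the start of mt-Atp6 in different reading frames. The whole of mt-Atp8 (chrMT:7766-7969) and the first 90 bases of mt-Atp6 (chrMT:7927-8016) are shown with the shared bases in capitals.
mt-Atp8: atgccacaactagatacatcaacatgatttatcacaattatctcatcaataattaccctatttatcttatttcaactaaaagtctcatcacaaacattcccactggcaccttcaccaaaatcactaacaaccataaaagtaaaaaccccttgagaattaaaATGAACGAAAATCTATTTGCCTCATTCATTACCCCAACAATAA
mt-Atp6: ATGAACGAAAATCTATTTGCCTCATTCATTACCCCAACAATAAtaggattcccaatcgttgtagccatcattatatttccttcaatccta

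To put the shared sequence on 1 scale, each transcript was divided into all its windows of 100 bases and each window was looked for in the nuclear transcripts of GENCODE M21. It was found for 99.5% of the windows of mt-Co2, 99.5% of mt-Atp6, 99.9% of mt-Co3, 30.8% of mt-Co1 and 0% of mt-Cytb and mt-Atp8. Besides the copies listed above, the transcript Gm13340 shared 80 windows with mt-Co1 and Gm13341 shared 88 with mt-Co2. The read length of the libraries, their strandedness and the treatment of reads that fit 2 places are not given in the sources used here. The search covered annotated transcripts and not the whole genome. mt-Atp8 lies between mt-Co2 and mt-Atp6 and ends 43 bases into mt-Atp6. Between the chromosome 1 copies of those genes lie 233 bases, as many as on chromosome MT, and their sequence was not examined. The last 43 bases of mt-Atp8 were identical to Gm10925, a stretch shorter than a window. So the 0% of mt-Atp8 does not show that chromosome 1 lacks its sequence.

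The levels per length fell into separate ranges. FPKM (counts divided by gene length and library total) had a median over the 12 libraries of 9317 in mt-Co1 and 4179 in mt-Cytb. It was 158 in mt-Co2, 115 in mt-Co3 and 92.3 in mt-Atp6, and mt-Atp8 had a median of 0. This order held in 12 of 12 libraries at each step. Within a library mt-Cytb stood 25.1 to 42.9 times above mt-Co2, whereas mt-Co2 stood 1.07 to 1.48 times above mt-Co3 and mt-Co3 1.15 to 1.44 times above mt-Atp6. Over the libraries the ranges of these last 3 genes overlapped, from 22.8 to 198 FPKM for mt-Co2, from 21.4 to 144 FPKM for mt-Co3 and from 15.02 to 108 FPKM for mt-Atp6.

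The 3 genes with nearly complete copies had counts close to those of the copies. The count of mt-Co2 was 1.02 to 1.12 times that of RP23-8J15.2 over the 12 libraries, and that of mt-Co3 was 0.962 to 1.13 times that of RP23-8J15.4. mt-Atp6 had 0.497 to 0.665 times the count of RP23-8J15.3. mt-Co1, whose copy is partial, had 152 to 402 times the count of RP23-8J15.1. With the reads of the copy added, mt-Co2 reached a median of 301.3 FPKM, mt-Atp6 239 FPKM and mt-Co3 225 FPKM, which in each library was at most 4.63% of the level of mt-Co1. Reads of these 3 genes and of their copies cannot be told apart over the shared bases, and their counts are uncertain for that reason.

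The plot of shared windows against level sets the 6 genes beside the 7 complex I genes of the same genome. mt-Nd3 and mt-Nd4l, with 97.6% and 98.5% of windows in nuclear transcripts, had medians of 74.9 and 19.5 FPKM. mt-Nd4, with 60.8%, had 1518 FPKM, and mt-Nd1, mt-Nd2, mt-Nd5 and mt-Nd6, with 0% to 3.19%, had 2139 to 6150 FPKM. So the 5 genes with 97.6% or more of windows shared had medians of 19.5 to 158 FPKM, and the 8 with 60.8% or less had medians of 1518 to 9317 FPKM, apart from mt-Atp8. The part of the shared sequence in these levels was not tested, and the 0% of mt-Atp8 holds for annotated transcripts alone.

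**Figure D1:**
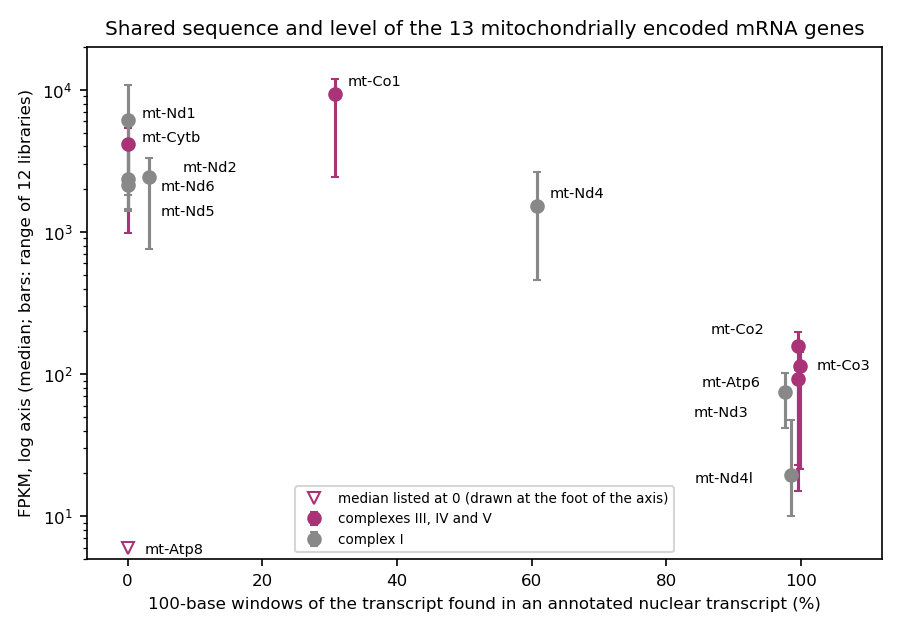
Median FPKM over 12 libraries (log axis, bars from the lowest to the highest library) against the percent of 100-base windows found in an annotated nuclear transcript, for the 13 mitochondrially encoded mRNA genes. mt-Co2, mt-Co3 and mt-Atp6 stand at the right between 92.3 and 158 FPKM, mt-Cytb and mt-Co1 at the upper left, and mt-Atp8, listed at 0 in the median, at the lower left.

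In male pups, mt-Cytb, mt-Co1, mt-Co2, mt-Co3 and mt-Atp6 stood on average at 0.462 to 0.527 times the control level when the dam had been stressed. The low mean rested on stressed males 1 and 3, while stressed male 2 lay near the controls for every one of the 5 genes. In female pups the same genes stood at 1.04 to 1.19 times the control level, with all 12 values of each gene shown in the plot of levels by library. Of the 16102 genes tested with edgeR (quasi-likelihood F test, Benjamini-Hochberg adjustment, threshold 0.05), 0 passed in males, 0.0% of those tested, and 0 passed in females, again 0.0%. At an unadjusted p under 0.05 edgeR gave 1028 genes in males and 48 in females. DESeq2 and limma-voom gave 0 calls in both sexes, with 1136 and 868 genes under that unadjusted limit in males and 49 and 53 in females.

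Complex III has 1 mitochondrially encoded subunit. mt-Cytb (ENSMUSG00000064370, chrMT:14145-15288, plus strand) encodes cytochrome b, the heme protein of the ubiquinol binding sites. Control males 1, 2 and 3 stood at 5629, 5699 and 7062 CPM, and stressed males 1, 2 and 3 at 2484, 4890 and 1168 CPM. The groups did not overlap, but stressed male 2 lay much nearer to the controls than to the other stressed males. Control females stood at 4531, 4543 and 4808 CPM and stressed females at 4457, 4641 and 5524 CPM, and here the groups overlapped. The means were 6130 ± 808 CPM in control and 2847 ± 1887 CPM in stressed males (SD, n = 3), a log2 fold change of -1.11 ± 0.39 (SE). In females they were 4627 ± 157 and 4874 ± 570 CPM, a log2 fold change of 0.07 ± 0.38 with an adjusted p of 1 in edgeR. No nuclear transcript of the annotation shares a window of 100 bases with this gene.

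Complex IV, cytochrome c oxidase, has 3. mt-Co1 (ENSMUSG00000064351, chrMT:5328-6872, plus strand) encodes the subunit that holds the site where oxygen is reduced. Its 3 control males stood at 12481, 18067 and 19514 CPM and its stressed males 1, 2 and 3 at 5360, 13889 and 3903 CPM. The groups overlapped, since stressed male 2 lay above control male 1. Control females ranged from 13137 to 15037 CPM and stressed females from 12635 to 17112 CPM, also with overlap. The log2 fold change was -1.11 ± 0.40 in males and 0.06 ± 0.40 in females (edgeR adjusted p = 1), from means of 16687 ± 3714 against 7718 ± 5394 CPM and 14034 ± 954 against 14630 ± 2278 CPM (control against stressed, SD, n = 3).

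mt-Co2 (ENSMUSG00000064354, chrMT:7013-7696) encodes the subunit that takes electrons from cytochrome c at its copper centre. Control males 1, 2 and 3 stood at 131, 116 and 118 CPM and stressed males at 52.4, 106 and 16.3 CPM, without overlap. Control females ranged from 89.8 to 104.5 CPM and stressed females from 104.1 to 132 CPM, with a slight overlap and means of 98.6 ± 7.76 and 114 ± 15.4 CPM (SD, n = 3). Stressed male 2 again lay close to the lowest control male, and the highest female was stressed female 3. The log2 fold change was -1.07 ± 0.45 (SE) in males and 0.21 ± 0.44 in females (edgeR adjusted p = 1).

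mt-Co3 (ENSMUSG00000064358, chrMT:8607-9390) encodes the third core subunit, a membrane protein without a redox centre. Control males stood at 101, 91.6 and 102 CPM and stressed males at 45.9, 87.8 and 17.5 CPM, without overlap but with stressed male 2 close to control male 2. Control females ranged from 81.2 to 88.5 CPM and stressed females from 82.6 to 110.0 CPM, with overlap. Means were 98.4 ± 5.94 against 50.4 ± 35.4 CPM in males and 84.9 ± 3.68 against 94.98 ± 13.9 CPM in females (SD, n = 3). The log2 fold changes were -0.96 ± 0.40 and 0.16 ± 0.39 (edgeR adjusted p = 1 in females).

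Complex V has 2. mt-Atp6 (ENSMUSG00000064357, chrMT:7927-8607) encodes subunit a, which forms the proton path beside the rotating ring. Control males stood at 61.2, 64.0 and 73.0 CPM and stressed males at 32.3, 61.5 and 10.7 CPM. Stressed male 2 lay between the control males, so the groups overlapped. Control females stood at 59.2, 51.9 and 57.2 CPM and stressed females at 69.6, 62.1 and 68.4 CPM, so that here all stressed females lay above all control females. This arrangement held for 3.07% of all genes tested in females, and mt-Atp6 was the only 1 of the 5 measurable genes to show it. Its log2 fold change in females was 0.25 ± 0.41 with an edgeR adjusted p of 1, and in males it was -0.92 ± 0.42 (SE).

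mt-Atp8 (ENSMUSG00000064356, chrMT:7766-7969) encodes a small subunit of the membrane part of the ATP synthase. It had 4 reads over the 12 libraries, 2 in control male 3 and 1 each in control male 1 and stressed male 2. In the 9 libraries at 0, a count of 0 allows a level of up to 0.131 to 0.183 CPM without TMM scaling (3 counts of the total, for counting error only). This limit does not cover reads that fit 2 places, such as those in the 43 bases shared with mt-Atp6. Whether such reads were counted is not known, so the low count is not read as a low level of the transcript. The gene did not enter the tests, and no fold change from these fits is given. Its neighbours mt-Co2 and mt-Atp6, with which it shares the precursor, had 256 to 2858 and 168 to 1603 reads per library.

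**Figure D2:**
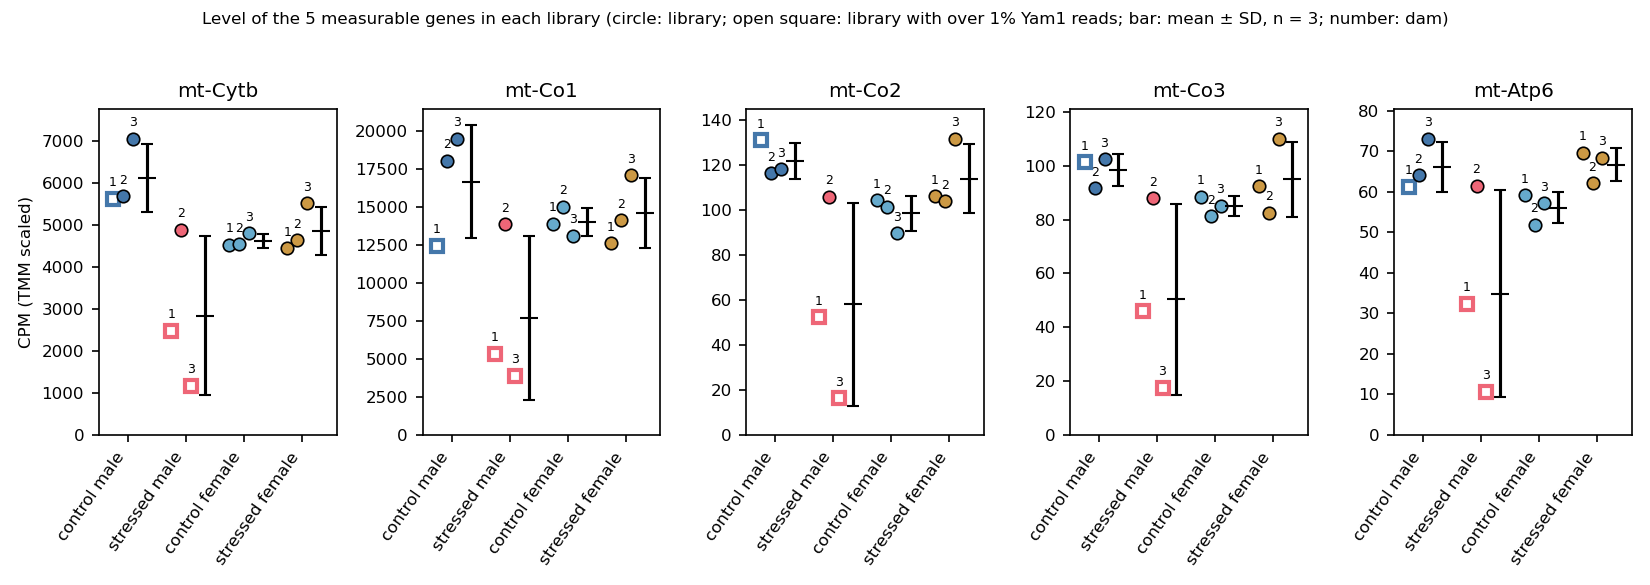
CPM of the 5 measurable genes in each of the 12 libraries, with the mean and SD of the 3 libraries of a group beside the points and the dam number above them; open squares are the 3 libraries with 1.00% to 4.13% Yam1 reads. In each panel stressed males 1 and 3 are the 2 lowest points and stressed male 2 lies within or just below the control males.

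In males all stressed libraries lay below all control libraries for 3 of these 5 genes, mt-Cytb, mt-Co2 and mt-Co3, an arrangement found in 2.95% of all genes tested; since this contrast was in view when the genes were picked, nothing is read from that count. The median log2 fold change of the 5 genes was -1.07 in males, against a median of 0.01 over all genes, and 0.16 in females. Without stressed male 3 the male median became -0.62 and without stressed male 2 it became -1.77. Without the 3 libraries rich in Yam1 reads it was -0.16, in a fit that leaves 1 stressed male and assumes that it varies like the other groups. The authors' deposited table gives changes in males from -0.63 for mt-Cytb and mt-Co1 to -0.47 for mt-Atp6. For mt-Atp8, which had few reads, it gives -0.05. These values come from a fit other than the one used here, so their size is not directly comparable with the edgeR values. In females the authors' deposited table gives 0.04 to 0.19 for the 5 genes, each with an adjusted p of 1.

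The male change minus the female change was -1.12 to -1.27 on the log2 scale, with a median of -1.17. With edgeR 0 of 16102 genes passed in this difference, 0.0% of those tested, 346 had an unadjusted p under 0.05, and DESeq2 and limma-voom also gave 0 calls (395 and 286 genes under that limit). The changes in males and in females are thus not shown to differ, and the difference holds the male contrast that was already known. Its median was -1.86 without stressed male 2, -0.81 without stressed male 3 and -0.41 without the 3 libraries rich in Yam1 reads.

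The dam is the animal that was stressed, so the counts of littermates were also summed. The 3 stressed litters stood at 3497, 4812 and 3681 CPM for mt-Cytb and the 3 control litters at 5038, 5186 and 5743 CPM, without overlap. For mt-Co1 they stood at 9145, 14182 and 11522 CPM against 13389, 16770 and 15783 CPM, with stressed litter 2 above control litter 1. All stressed litters lay below all control litters for mt-Cytb and mt-Co3, an arrangement found in 3.18% of the 16749 genes tested. The log2 fold changes ran from -0.41 ± 0.16 (SE) for mt-Cytb to -0.21 ± 0.13 for mt-Atp6. In edgeR 0 genes passed, 0.0% of those tested, with 228 at an unadjusted p under 0.05 and 0 calls in DESeq2 and limma-voom (229 and 202 genes under that limit). These sums hold the male libraries, and without the 3 rich in Yam1 reads the median of the 5 genes turned from -0.29 to 0.11. In that fit stressed litters 1 and 3 and control litter 1 held the female pup alone. Sex and number of pups were then unequal between the stressed and control litters.

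Between the sexes, the 5 genes were lower in males by log2 fold changes of -0.18 for mt-Cytb to -0.35 for mt-Co3, with a median of -0.34. None of them was among the 8 genes that passed (edgeR, 0.0497% of those tested), and their adjusted p ran from 0.549 to 0.754. Without stressed male 2 the number that passed was 1384 in place of 8, which is 8.44% of the genes tested in that fit, and 1 of the 5 genes, mt-Co1, was among them with a log2 fold change of -0.69. The comparison holds the low values of stressed males 1 and 3 that were already known, so nothing is read from that call. The median of the 5 genes was then -0.68. Without stressed male 3 it was -0.14, and without the 3 libraries rich in Yam1 reads it was 0.09.

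As a share of all counted reads the 6 genes gave 1.84%, 2.45% and 2.35% in control males 1, 2 and 3. In stressed males 1, 2 and 3 they gave 0.789%, 1.95% and 0.490%. In females the share ranged from 1.73% to 2.03% in controls and from 1.83% to 2.36% in stressed pups. Stressed males 1 and 3 were thus the lowest of the 12 libraries, and stressed male 2 lay inside the range of the females. Exact binomial intervals (95%, counting error only) were at most 0.0071 percentage points to either side. Reads of mt-Co1 made up 67.2% to 76.3% of the reads of the 6 genes, mt-Cytb 22.8% to 31.2%, and the other 4 together 0.868% to 1.64%.

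The make-up of the mitochondrial mRNA separated the libraries differently. Of the counts of the 13 mRNA genes, the 6 genes held 36.3% in stressed male 1, 42.2% in stressed male 3 and 40.02% in control male 1, against 54.5% to 58.2% in the other 9 libraries. These 3 libraries are the ones rich in Yam1 reads, and 1 of them is a control. Stressed male 2, with 56.3%, lay with the other controls and with the females. The 3 libraries were set apart with their Yam1 values already known, and the part of Yam1 in this make-up was not tested.

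Among single genes, mt-Co1 held 24.4% to 32.2% of the mitochondrial mRNA counts in the 3 libraries against 39.6% to 43.7% in the other 9, and mt-Cytb 9.63% to 12.2% against 12.6% to 15.2%. On the complex I side mt-Nd5 held 17.2% to 24.1% against 8.37% to 12.8%, and mt-Nd6, the only mRNA gene of the opposite strand, 4.77% to 6.29% against 3.12% to 3.997%. mt-Nd5 and mt-Nd6 overlap by 14 bases. The ratio of mt-Co1 to mt-Nd1 reads was 1.03 in stressed male 1 and 1.20 in control male 1 against 2.43 to 2.93 in the 9, and stressed male 3, at 2.14, lay nearer to these. So the level of the 6 genes was low in stressed males 1 and 3, and their share of mitochondrial mRNA was low in control male 1 as well.

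**Figure D3:**
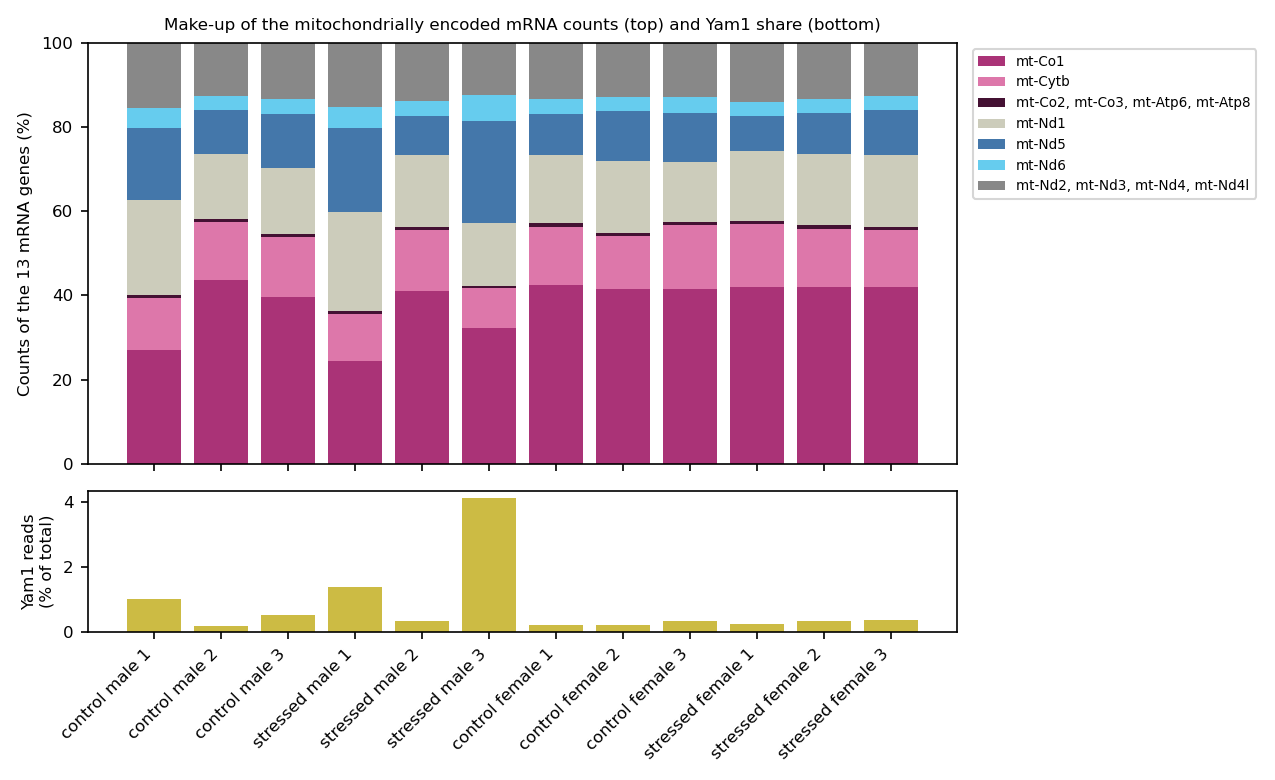
Percent of the counts of the 13 mitochondrially encoded mRNA genes taken by mt-Co1, by mt-Cytb, by the other 4 genes of complexes IV and V and by the complex I genes in each of the 12 libraries, above the percent of all reads taken by Yam1. Control male 1 and stressed males 1 and 3 have the lowest shares of mt-Co1 (24.4% to 32.2%) and the highest Yam1 bars (1.00% to 4.13%).

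The 7 complex I genes of the same genome also lay below 0 in males and had a different order of libraries. Their median log2 fold change was -0.93 in males and 0.06 in females, against -1.07 and 0.16 for the 5 genes. In summed litters it was -0.42 against -0.29. For the difference between the sexes' changes it was -1.02 against -1.17, and between males and females 0.08 against -0.34. Summed CPM of the complex I genes was highest in control male 1, at 27583, whereas that of the 5 genes was highest in control male 3, at 26870. In stressed male 1 the complex I genes summed to 14015 CPM, inside the female range of 12697 to 17844 CPM, while the 5 genes summed to 7975 CPM, below the female range of 17360 to 22946 CPM. In stressed male 3 both sums lay below those of all other libraries, at 7011 and 5116 CPM. No test of the difference between the 2 sets was made.

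The nuclear subunits of complexes III, IV and V lay lower by less. Of 41 tested, 40 had a log2 fold change below 0 in males, with a median of -0.29, where 48.3% of all genes were below 0, and 32 were above 0 in females, with a median of 0.08. None of the 41 passed the threshold in either sex (edgeR), and this list too was chosen with earlier results known. Their summed level was lowest in the 3 libraries rich in Yam1 reads. It was 5783 CPM in stressed male 1, 4936 CPM in stressed male 3 and 5698 CPM in control male 1. The other 9 ranged from 6713 to 10088 CPM. Stressed male 2, at 8825 CPM, lay above 2 of the 3 control males. The 5 mitochondrially encoded genes were not low in control male 1, where they summed to 18404 CPM.

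In complex III all 9 nuclear subunits lay below 0 in males (median -0.32, range -0.50 to -0.20). Uqcrc1, a core protein of the matrix side, stood at 226 ± 94.1 CPM in control and 181 ± 12.3 CPM in stressed males (SD, n = 3). Its partner Uqcrc2 stood at 222 ± 79.2 and 193 ± 42.7 CPM, and Uqcrq, a small subunit next to cytochrome b, at 158 ± 23.2 and 111 ± 64.4 CPM. For all 3 the groups overlapped. In females their log2 fold changes were -0.04, -0.05 and 0.08.

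In complex IV 13 of 14 tested subunits lay below 0 in males (median -0.31). Cox6a1 and Cox4i1, regulatory subunits, stood at 330 ± 64.2 against 253 ± 115 CPM and 270 ± 37.8 against 191 ± 113 CPM (control against stressed males, SD, n = 3). The stressed males spread widely, from 103 to 319 CPM for Cox4i1, and overlapped the controls in both genes. The exception was Cox8b, the muscle form of subunit 8, with a log2 fold change of 1.75 ± 1.05 (SE). It stood at 0 to 2.26 CPM in stressed and 0.065 to 0.445 CPM in control males, so that its fold rests on few reads.

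In complex V all 18 tested subunits lay below 0 in males (median -0.26). Atp5b and Atp5a1, the β and α subunits of the catalytic head, had the highest levels, with 1375 ± 573 against 1158 ± 193 CPM and 1028 ± 381 against 903 ± 56.4 CPM (control against stressed males, SD, n = 3). Atp5o, the stalk subunit that joins head and membrane part, had a log2 fold change of -0.41 ± 0.20 and Atp5l, subunit g, one of -0.32 ± 0.21. None passed the threshold, and in females the 4 genes ran from -0.04 to 0.11.

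**Figure D4:**
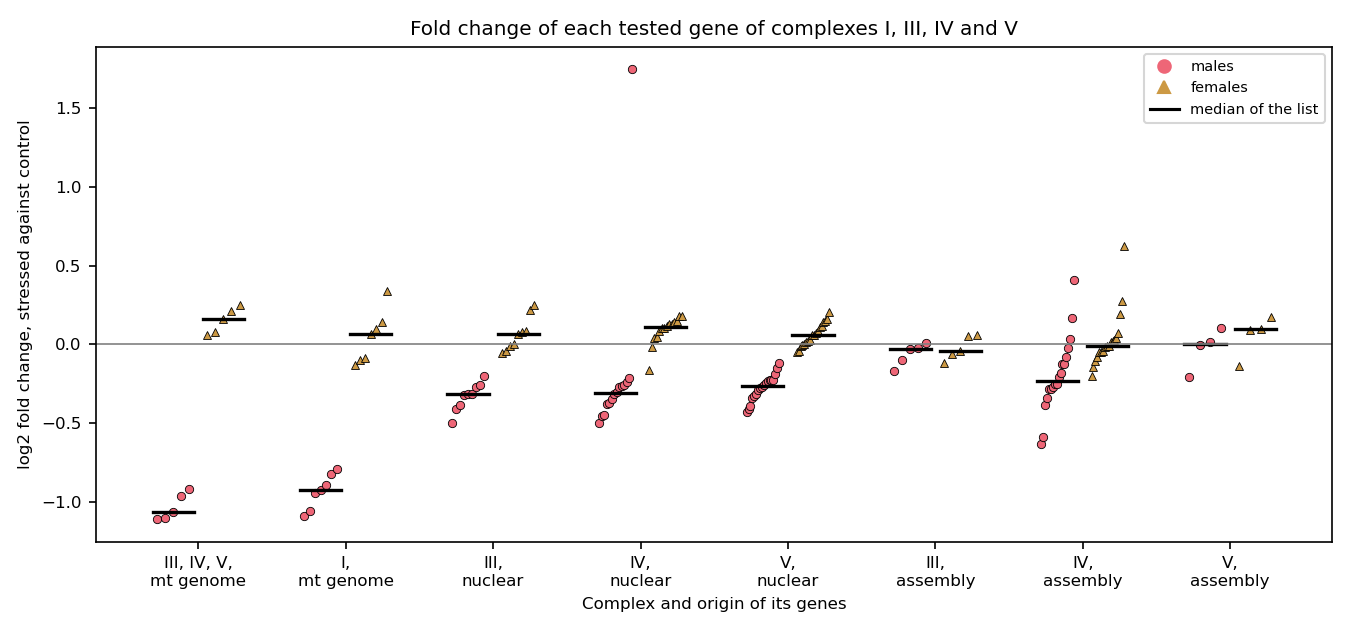
Log2 fold change of each tested gene, stressed against control, in males (circles) and females (triangles), for the mitochondrially encoded genes, the nuclear subunits and the assembly factors of the complexes, with a bar at the median of each list. In males the 5 mitochondrially encoded genes lie between -1.11 and -0.92 and the nuclear subunits between -0.50 and -0.12 apart from Cox8b at 1.75; no gene passed the threshold.

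**Figure D5:**
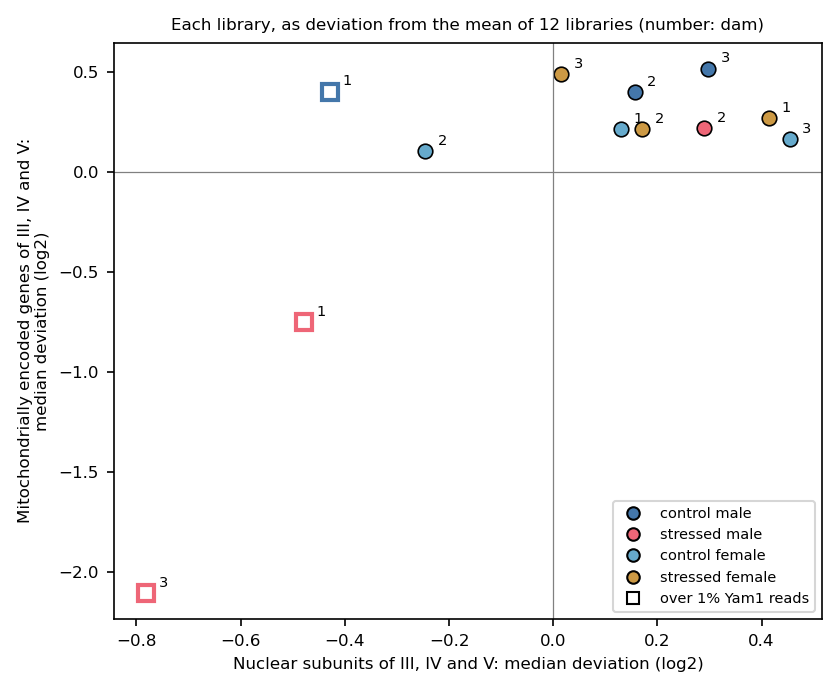
For each library, the median deviation (log2 CPM, from the mean of the 12 libraries) of the 5 mitochondrially encoded genes against that of the 41 nuclear subunits of complexes III, IV and V. Stressed males 1 and 3 are low on both axes (-0.75 and -2.11 against -0.48 and -0.78), whereas control male 1 is low for the nuclear subunits (-0.43) and at 0.40 for the mitochondrially encoded genes.

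Of 27 tested assembly factors, 21 had a log2 fold change below 0 in males, with a median of -0.13, and 14 in females, with a median of -0.01. The median log2 fold change in males was -0.03 for 5 factors of complex III, -0.23 for 18 of complex IV and 0.00 for 4 of complex V, with 4 of 5, 15 of 18 and 2 of 4 below 0, and none of the 27 passed the threshold in either sex (edgeR). The complex III factors Uqcc1 and Uqcc2, which act on newly made cytochrome b, had -0.10 ± 0.14 and -0.17 ± 0.17 (SE). Of the complex IV factors, Cox19, which takes part in the supply of copper, had -0.59 ± 0.26, Cox15, which makes heme a, -0.34 ± 0.17, Coa5 -0.21 ± 0.12 and Cox14, which binds newly made mt-Co1 protein, -0.27 ± 0.28. Stressed males ranged from 25.0 to 55.2 CPM for Cox19 and control males from 48.3 to 61.6 CPM, with overlap. For complex V, Atpaf2 and Atpaf1, chaperones of the α and β subunits, had -0.21 ± 0.14 and 0.01 ± 0.14, and 1110001J03Rik 0.10 ± 0.24.

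For 20 genes that copy and transcribe mitochondrial DNA the median log2 fold change was -0.07 in males, with 12 below 0, and 0.08 in females, with 8 below 0, and none passed the threshold. Polg, the mitochondrial DNA polymerase, stood at 75.3 ± 11.2 CPM in control and 82.0 ± 16.8 CPM in stressed males (SD, n = 3), and Gabpa, a part of the factor NRF-2 that acts on nuclear genes of the respiratory chain, at 55.8 ± 11.7 and 54.5 ± 5.58 CPM. Top1mt, the mitochondrial topoisomerase, had a log2 fold change of 0.32 ± 0.25 (SE) and Pprc1, a coactivator of the PGC-1 family, one of 0.21 ± 0.16. In females the 4 ran from -0.25 to 0.12.

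Genes of mitochondrial RNA processing and stability had medians of -0.03 in males and -0.02 in females over 20 genes, with 12 below 0 in each sex, and again none passed. Lrpprc, which stabilises mitochondrial mRNA, stood at 69.5 ± 19.9 CPM in control and 80.4 ± 14.8 CPM in stressed males, with overlap. Grsf1, a protein of the mitochondrial RNA granule, stood at 83.3 ± 8.12 and 84.5 ± 4.65 CPM. Fastkd5, which is needed for precursors not cut at a tRNA, had 4.44 ± 0.64 CPM in control and 3.11 ± 0.33 CPM in stressed males (SD, n = 3), a log2 fold change of -0.51 ± 0.19 (SE) that did not pass. 1110008L16Rik went the other way, with 0.35 ± 0.16.

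Markers of mitochondrial mass had a median of -0.05 in males and -0.03 in females over 13 genes, of which 0 passed. In males 11 of the 13 lay below 0, where 48.3% of all genes did, and in females 9 of the 13, where 51.5% did. Their summed level was highest in control male 3, at 3669 CPM, a pup with high markers of the upper small intestine. Control males 1 and 2 stood at 2218 and 2558 CPM, and stressed males 1, 2 and 3 at 2503, 2583 and 2369 CPM. Cs, citrate synthase, stood at 545 ± 161 CPM in control and 470 ± 21.4 CPM in stressed males, and Hspa9, the matrix chaperone mortalin, at 359 ± 72.0 and 381 ± 54.6 CPM (SD, n = 3). Vdac1, the channel of the outer membrane, had a log2 fold change of -0.37 ± 0.18 (SE) and Mdh2, malate dehydrogenase of the matrix, one of -0.72 ± 0.36. In stressed males 1 and 3, where the 5 genes deviated by -0.75 and -2.11, this list deviated by 0.01 and -0.05.

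Other cell types and noncoding RNA were read beside these values. Summed markers of epithelium ranged from 5584 to 5903 CPM in stressed and from 4610 to 7786 CPM in control males, with Epcam, an adhesion molecule, at 1381 ± 233 and 1554 ± 166 CPM and Krt8, a keratin, at 1459 ± 73.8 and 1478 ± 554 CPM. Smooth muscle markers summed to 4712 to 5501 CPM in stressed and 2905 to 8212 CPM in control males, with all 8 markers counted and Myh11 and Acta2, contractile proteins, the highest. Markers of the suckling ileum, led by the endocytic genes Dab2 and Cubn, summed to 1912 to 2568 and 1769 to 2411 CPM. In all 3 lists the stressed males lay within or overlapped the range of the controls. Immune, erythroid and enteric neuron markers overlapped too, at 206 to 262 against 194 to 295 CPM, 150 to 261 against 143 to 223 CPM and 274 to 380 against 235 to 434 CPM. The list of abundant noncoding RNA summed to 15839, 3852 and 47373 CPM in stressed males 1, 2 and 3 and to 11523, 2397 and 6625 CPM in control males. Within it Lars2, the mitochondrial leucyl-tRNA synthetase gene, which was placed there beside Yam1, had 200 to 3342 CPM in stressed and 159 to 764 CPM in control males. The part of these lists in the level of the 6 genes was not tested.

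Genes with the most similar pattern were sought among 10085 nuclear genes with a mean of at least 10 CPM. The measure was the Pearson correlation over 12 libraries of log2 CPM with the mean of the 6 genes, mt-Atp8 included. The 3 highest were the chromosome 1 copies RP23-8J15.3, RP23-8J15.4 and RP23-8J15.2, with r of 0.989, 0.986 and 0.985. Over the shared bases their reads cannot be told apart from those of mt-Atp6, mt-Co3 and mt-Co2, 3 of the 6 genes averaged. A high rank of the copies was thus built in, and nothing is read from it. Next came Slc9a3r2, a scaffold protein of the brush border exchanger NHE3, with 0.969, and Fth1, the ferritin heavy chain, with 0.962. The lowest were Ppfia1 with -0.981, Ash1l, a histone methyltransferase, with -0.957 and Kansl1, a subunit of a histone acetyltransferase complex, with -0.954. Outside the copies, the next highest genes, named after their values were seen, were Szrd1 (0.959), Spr (0.958) and Copz1 (0.957).

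All these correlations share the libraries and their scaling. They lean on stressed males 1 and 3, where the mean of the 6 genes lay farthest from its median over the libraries. Without them, over 10 libraries, r was 0.797 for Slc9a3r2, 0.518 for Fth1, -0.750 for Ppfia1 and -0.398 for Ash1l. It was 0.468 for Szrd1, 0.326 for Spr and 0.664 for Copz1, and for Kansl1 it changed sign to 0.09. For the copies r was 0.734 to 0.854. Each of these values was weaker than over 12 libraries. Between pairs of the 5 genes r was 0.918 to 0.995 over 12 libraries and 0.387 to 0.860 over 10, highest in both for mt-Co2 with mt-Co3. The lowest was mt-Co1 with mt-Atp6 over 12 libraries and mt-Co1 with mt-Co2 over 10.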

How the data were processed

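Per the file headers, the deposited files give raw read counts and FPKM per gene for 12 libraries, and the authors' own comparisons as log2 changes with adjusted p-values. The builds GRCm38 and mm10 and the tools edgeR 3.16.5, DESeq2, HTSeq 0.6.1, STAR 2.5 and TopHat stand in the submitters' processing notes. All 240813 nonzero counts matched FPKM within 1e-06. The test on counts was edgeR's quasi-likelihood F test (version 4.0.16, R 4.3.3) with TMM and filterByExpr defaults, on 16102 genes in 1 fit of 4 groups (8 residual degrees of freedom), adjusted by Benjamini and Hochberg over all genes at a threshold of 0.05. Differences are stressed minus control, and males minus females. Littermates were summed for litters (16749 genes). The fits were tested on simulated data. DESeq2 1.42.0 and limma-voom (limma 3.58.1) were alternatives.

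The 6 genes and all gene lists were chosen with earlier results of these data known. From each list on the complexes, on mitochondrial DNA, RNA and mass, the 2 genes of highest mean CPM and the 2 of smallest unadjusted p in males are named, with any that passed. From other lists the 2 of highest mean CPM are named. By similarity, the 5 highest and 3 lowest are named. 7 listed genes, among them mt-Rnr1 and mt-Rnr2, were not analysed here. Littermates carry 1 dam number in the labels and pair in the difference and the comparison of sexes. Deviations of littermates correlated at -0.362 to 0.545. Sequences are from GENCODE M21 transcripts, at the same places as in the deposited table. Intervals are exact binomial (Clopper-Pearson, 95%).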

Additional observations from a re-analysis of the deposited data

Results flagged for a closer look

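The level of mt-Cytb in the 6 females had a high value of 5524 CPM, in stressed female 3, which was far from the others by Dixon's criterion for 6 values (gap over range above 0.625). The other 5 females lay between 4457 and 4808 CPM. This was 1 of 16 groups of 6 values tested, and chance marks about 1 in 20.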

How the results depend on the processing

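Of the recomputed fold changes of single genes, 568 kept their direction and their side of the threshold or moved by less than the spread, 16 moved by more and 1 came to pass. Between the sexes DESeq2 gave 18 calls with all 12 libraries. Without the 3 libraries richest in Yam1 the median of the 5 genes was -0.16 in males and -0.41 for the difference between the changes. In litters it changed sign to 0.11, in a fit where stressed litters 1 and 3 and control litter 1 held the female pup alone. The cause was not tested. With all mitochondrially encoded mRNA as the denominator the share of the 6 genes was 50.9% in control males, 44.9% in stressed males, 56.4% in control females and 56.9% in stressed females. Leaving out 1 library at a time gave 0 to 1 genes in males (1 without stressed male 2), 8 to 1384 between the sexes and 0 in the other comparisons. The medians then ran from -1.77 to -0.62 in males, 0.05 to 0.23 in females, -1.86 to -0.81 for the difference, -0.68 to -0.14 between the sexes and -0.43 to -0.22 in litters. A replicate block changed no call of these genes. With the dam number as the block the medians were -1.19 in males, 0.18 in females and -0.30 in litters. With the litter as the block they were -1.39 for the difference and -0.48 between the sexes (6 genes passed). In males, females and litters the dam numbers do not pair stressed and control dams, whose deviations correlated at -0.329 to 0.306. Few reads limit the values of mt-Atp8, with 4 over the 12 libraries, and of Cox8b.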
